A study of Drosophila melanogaster with 4 samples.

Results

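The H3K23ac regions described here are those of the X chromosome of *Drosophila melanogaster* outside its proximal end, that is, all regions on the X that end at or before position 20422827 of the 22422827 bases of the FlyBase release 5 X sequence. The last 2 Mb, at the centromere side, were left out. The rule used position alone. It gave 1461 of 10281 regions in ChIP replicate 1, 871 of 7422 in ChIP replicate 2 and 2727 of 18064 in the combined list of the series. The series has 2 H3K23ac ChIP samples and 2 input samples of chromatin without immunoprecipitation. All 4 were made from Oregon-R embryos, a wild-type laboratory strain, collected at 14 to 16 hr of development and fixed with 1.8% formaldehyde. The labels give no sex for the embryos, and each sample was made from whole embryos of all tissues. Fewer cells carrying the mark and less mark per cell therefore cannot be told apart in any value below, nor can embryos of either sex. Whether the replicates are separate embryo collections is not stated in the labels, so their differences may be technical. The number of reads behind each list is unknown.

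H3K23ac is the acetylation of a lysine in the tail of histone H3, a mark of the open chromatin around active genes. In Drosophila the acetyltransferases Enok and Nejire (the fly CBP) have been described as writers of this mark. The Drosophila X is present once in male and in a pair in female cells. In males the MSL complex, with its roX RNAs, coats the X and acetylates another histone, H4, over the bodies of active genes, which raises their transcription to the level given by 2 copies. The distal tip of the X, at the telomere side, is the start of the sequence coordinates, and the centromere lies beyond their end. Genes are not named below, since no annotation of the files' release was used here, and no sequence is printed for the same reason.

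The X was sparsely and unevenly marked. Replicate 1 covered 3.16 Mb of the 20.4 Mb interval (15.5%) and replicate 2 covered 1.73 Mb (8.45%), a mean of 12.0% ± 4.97 (SD, n = 2). The combined list reached 6.63 Mb (32.4%). Replicate 1 covered far more than replicate 2, so each value below is given for both. There were 71.5 regions per Mb in replicate 1, 42.6 per Mb in replicate 2 and 134 per Mb in the combined list. Outside their own last 2 Mb at the centromere side, arms 2L, 3L and 3R were covered to 18.6%, 19.7% and 21.3% in replicate 1 and to 13.7%, 14.2% and 15.1% in replicate 2. The X was the least covered of the 4 in both replicates. Pooled over the 3 arms, the covered share of the X was 0.775 times the autosomal share in replicate 1 and 0.586 times in replicate 2. The mean of these ratios turned with a score limit: with only regions above the median score of their own list, the ratio was 1.24 in replicate 1 and 0.876 in replicate 2, a mean of 1.06 in place of 0.681. This limit was set on the score, which was itself higher on the X, with medians of 0.78 and 0.74 against 0.65 on each arm. It therefore kept a larger share of the coverage on the X than on the arms. The difference between the X and the arms was not tested, because arms, windows and regions are not replicates of a condition and 1 X gives no spread of its own.

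The landscape consisted of a dense distal block, a long and mostly sparse middle, and dense windows between 18.25 and 19.5 Mb that ended before the cut. The middle also held stretches above the mean of the X in both replicates. Among them were 4.25 to 4.5 Mb (27.7% and 16.5%), 5.5 to 6 Mb (23.4% and 11.8%) and 14.5 to 14.75 Mb (21.1% and 13.9%). Between the dense windows near the cut, 18.75 to 19 Mb was above the mean in replicate 2 only (13.5% and 9.89%). In windows of 250 kb, of which 81 fit into the interval, coverage ran from 2.60% to 47.8% in replicate 1, with a median of 13.5%, and from 0% to 30.9% in replicate 2, with a median of 6.33%. Ranked by the mean of the 2 replicates, the most covered window lay between 1 and 1.25 Mb, with 47.8% in replicate 1 and 28.4% in replicate 2, from 39 and 32 regions. It was followed by 19.25 to 19.5 Mb (34.3% and 30.9%), 0.5 to 0.75 Mb (32.9% and 30.2%), 2 to 2.25 Mb (36.2% and 22.2%) and 1.5 to 1.75 Mb (35.2% and 19.1%). The order differed between the replicates, and in replicate 2 alone the windows from 19.25 and from 0.5 Mb came before the one from 1 Mb. Of these 5 windows, 4 were at the distal end. By the same mean, the least covered window, 13.75 to 14 Mb, held 6 regions in replicate 1 (3.91%) and 0 in replicate 2, although the combined list had 24 regions there (15.2%). The next were 12.75 to 13 Mb, with 3.87% and 0.667%, and 14.25 to 14.5 Mb, with 2.60% and 2.41%, which was the lowest in replicate 1 alone. The windows 17.75 to 18 Mb (6.91% and 1.18%) and 4.75 to 5 Mb (4.91% and 3.52%) completed the sparsest 5.

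**Figure D1:**
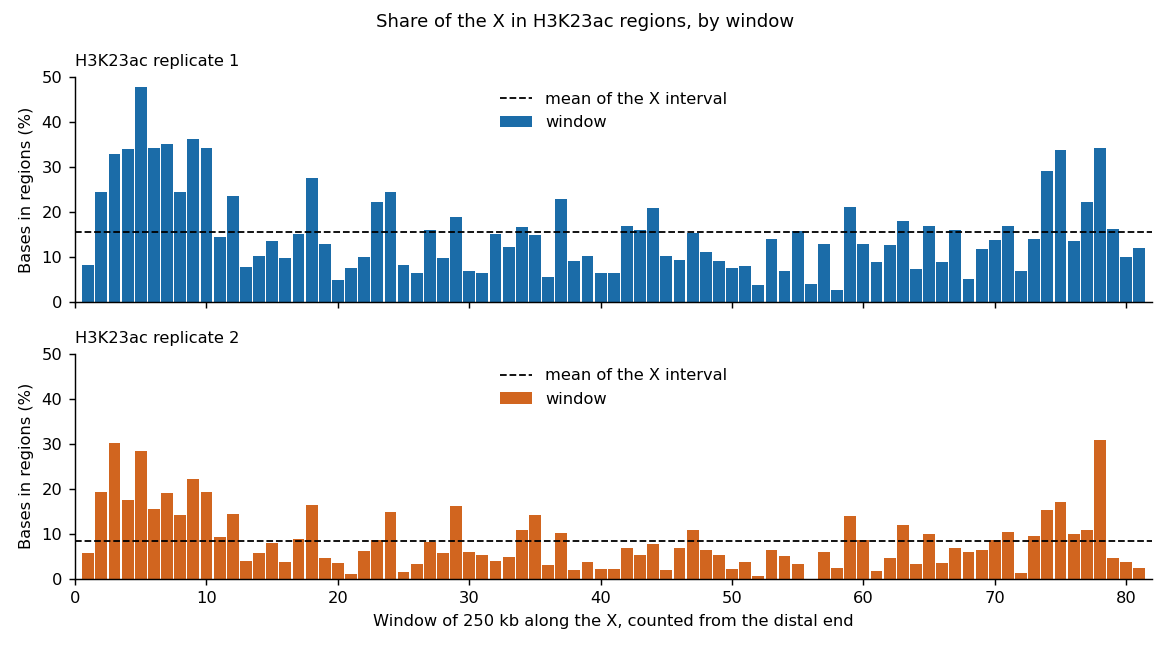
Share of bases in H3K23ac regions in each of the 81 windows of 250 kb along the X, counted from the distal end, for replicate 1 (top) and replicate 2 (bottom); the dashed lines mark the mean of the interval, 15.5% and 8.45%. Windows 2 to 10 stand above the line in both replicates, and window 78 is the high bar near the proximal end, with 34.3% and 30.9%.

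The replicates ranked the windows much alike. Spearman's rho between their window coverages was 0.865 over 81 windows, given as a description, since the windows are neighbours on 1 chromosome. Of the 21 windows above the upper quartile in each replicate 18 were shared, and of the 21 below the lower quartile 14 were shared. The number of windows above the upper quartile in 1 replicate and below the lower in the other was 0. In both replicates 24 windows were above the mean of the X and 42 below it, while 15 were above it in 1 replicate only. The windows above the mean in both formed 13 runs, 9 of them a single window. The windows below it in both formed 17 runs, of which the longest was 7 windows, from 11.75 to 13.5 Mb, covered to 8.65% in replicate 1 and 4.26% in replicate 2.

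By far the longest dense run was the 9 windows from 0.25 to 2.5 Mb. It made up 11.0% of the interval but held 24.0% of the bases that replicate 1 covered, 26.9% in replicate 2 and 30.6% of the bases shared by the lists. Its coverage was 33.7% in replicate 1 and 20.6% in replicate 2, against 13.2% and 6.94% in the rest of the X. It held 298 and 205 regions, or 132 and 91.1 per Mb, against 64.0 and 36.6 per Mb elsewhere. Regions in the block were also somewhat wider, with medians of 2024 bp and 1854 bp in the block and of 1766 bp and 1658 bp in the rest. Their scores differed little, with medians of 0.79 and 0.76 in the block against 0.78 and 0.74 elsewhere. The distal tip itself was not dense: the first window, 0 to 0.25 Mb, was covered to 8.16% and 5.84%. The block was picked out by its coverage, so these values describe it and no test applies.

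The same stretch counted from the distal end was also denser than the remainder on the autosomal arms. Its coverage was 2.55 times that of the remainder on the X in replicate 1, against 1.49 times on 2L, 2.00 times on 3L and 1.60 times on 3R. In replicate 2 these ratios were 2.97 on the X, and 1.58, 2.29 and 1.77 on 2L, 3L and 3R. The X had the highest ratio in both replicates, for a stretch that was chosen on the X and whose limits need not suit the other arms. The first 0.25 Mb was covered to 8.16% and 5.84% on the X, against 16.8% to 25.5% and 12.8% to 27.7% on the 3 arms.

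In steps of 2 Mb, coverage was highest in the first 2 Mb, low in the middle of the X and higher again from 18 to 20 Mb. In replicate 1 it was 30.1%, 18.7%, 15.6%, 11.0%, 12.2%, 13.3%, 8.64%, 12.1%, 12.1% and 21.7% from the first 2 Mb to the stretch from 18 to 20 Mb. In replicate 2 it was 18.7%, 10.8%, 8.02%, 6.21%, 6.37%, 5.99%, 3.35%, 6.57%, 6.57% and 12.7%. Both replicates had their lowest value between 12 and 14 Mb. Within the last step, the windows from 18.25 to 18.75 Mb (31.5% and 16.2%) and from 19 to 19.5 Mb (28.3% and 20.9%) were above the mean of the X in both replicates, while those from 19.5 Mb on were not. As a rank trend along the 81 windows this gave a rho of -0.19 in replicate 1 and -0.24 in replicate 2. Without the first 2.5 Mb, the rho was 0.099 and 0.040, so the negative value rested on the distal block.

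Spacing on the X was wide. The median distance from a region to the next was 5594 bp in replicate 1 and 8035 bp in replicate 2. In the combined list it was 2105 bp. On 2L, 3L and 3R it was 4120, 3654 and 4007 bp in replicate 1 and 4992, 4930 and 4354 bp in replicate 2, shorter on each arm than on the X. On the X the lower quartile was 1875 bp in replicate 1 and 2156 bp in replicate 2, while the 95th percentile was 42074 bp and 90179 bp, against 32376 to 36077 bp and 47151 to 58704 bp on the 3 arms. The longest distances of replicate 1 were not on the X, at 152063 bp on the X against 208856 bp on 2L and 244858 bp on 3L. In replicate 2 the longest was 349681 bp on the X, against 330350 bp on 2L and 318630 bp on 3L. Relative to the mean distance the spread on the X was not the highest, with a coefficient of variation of 1.53 and 1.84 on the X against 1.74 and 2.01 on 2L. Distances under 1 kb made up 15.8% of those on the X in replicate 1 and 13.6% in replicate 2, against 18.9% to 21.9% and 18.9% to 21.0% on the 3 arms. Within the dense distal block the median distance was 2806 bp and 4074 bp, against 6522 bp and 9381 bp in the rest of the X.

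**Figure D2:**
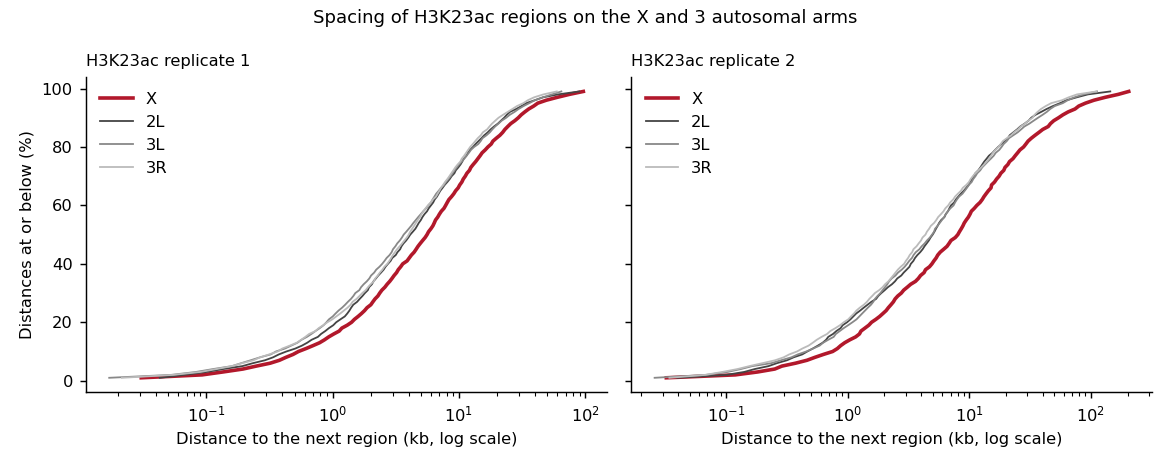
Cumulative share of the distances between neighbouring H3K23ac regions, in kb on a log scale, for the X (red) and the arms 2L, 3L and 3R (greys) in replicate 1 (left) and replicate 2 (right). The X, with medians of 5594 bp and 8035 bp, lies to the right of the other 3 at 98 of 99 percentiles in each replicate, the exception being the lowest.

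Regions under 1 kb apart formed chains. On the X, 28.1% of the regions of replicate 1 and 24.9% of those of replicate 2 lay in chains of 2 or more, against 33.4% to 37.6% and 32.6% to 36.9% on the 3 arms. The chain with the most regions in replicate 1 had 5 regions over 18.6 kb, from 1693792 to 1712395, inside the distal block. Replicate 2 had 5 regions there as well, and covered 65.4% of it, against 85.9% in replicate 1. In replicate 2 the longest chain, also of 5 regions, ran from 7065327 to 7079238 and was covered to 89.2%, with 81.1% in replicate 1. In the combined list 15 regions formed a chain of 65.0 kb from 19267020 to 19332022, in the window ranked second by mean coverage. It met 18 regions of replicate 1 and 16 of replicate 2, which covered 59.0% and 59.9% of its bases.

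Stretches of at least 50 kb with no region in any of the 3 lists numbered 14 on the X, together 923 kb or 4.52% of the interval. There were 9 on 2L, 5 on 3L and 3 on 3R, which are 6.86 per 10 Mb on the X and 4.28, 2.22 and 1.16 per 10 Mb on these arms. The longest on the X was 93.2 kb, from 11998371 to 12091597, within the longest run of sparse windows. It was followed by 16344831 to 16430029 (85.2 kb), 8188301 to 8264131 (75.8 kb), 7609525 to 7683477 (73.95 kb) and 15902607 to 15973837 (71.2 kb). The next 5 were 7684795 to 7754911 (70.1 kb), 4601295 to 4664427 (63.1 kb), 17993943 to 18053761 (59.8 kb), 9388133 to 9445957 (57.8 kb) and 6362666 to 6420439 (57.8 kb). All 14 lay between 3473399 and 18053761, with 8 before and 6 after the 10 Mb position. Inside the dense distal block the longest such stretch was 22.0 kb.

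The empty stretches from 7609525 and from 7684795 were separated by a single region of 1317 bp, found in the combined list only, with a score of 0.49. Together with it they formed 145 kb with 0 regions in either replicate. Replicate 1 had its longest gap at the same place, 152 kb from 7609514 to 7761576. The longest gaps of replicate 2 were not empty elsewhere. Its gap of 349.7 kb, from 12641781 to 12991461, held 6 regions of replicate 1 and 19 of the combined list, and the next, 315 kb from 13697426 to 14012285, held 11 and 34. A gap means that no region was called there, and whether reads could be placed in it was not examined.

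Regions on the X were about as wide as those elsewhere, with fewer very wide ones in replicate 2. Replicate 1 had a median width of 1822 bp and replicate 2 one of 1708 bp, with 1817 bp in the combined list. On the 3 arms the medians were 1817 to 1840 bp, 1762 to 1808 bp and 1795 to 1871 bp. On the X, 45 of 1461 regions of replicate 1 and 13 of 871 regions of replicate 2 reached 5 kb. The arms 2L, 3L and 3R had 51 of 1800, 79 of 2005 and 87 of 2456 such regions in replicate 1, and 39 of 1327, 53 of 1440 and 55 of 1811 in replicate 2. The 10 widest ranged from 7586 to 13400 bp in replicate 1, of which 5 were in the distal block, and from 5332 to 8580 bp in replicate 2, of which 6 were. Of the 10 widest combined regions, from 13787 to 24061 bp, 9 lay in the block. The widest, 606832 to 630892, contained 6 regions of replicate 1 and 5 of replicate 2, which covered 52.7% and 68.9% of it. The one outside the block, 7065108 to 7081740, met 5 regions of each replicate and was covered to 79.9% and 74.6%. Wider regions scored higher, with a rho between width and score of 0.520 in replicate 1 and 0.479 in replicate 2. The combined list gave 0.350.

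The score, 1 value per region given by the authors on a log2 scale, was higher on the X along its whole length. The median on the X was 0.78 in replicate 1 and 0.74 in replicate 2, against 0.65 on each of 2L, 3L and 3R in both replicates. The differences of 0.13 and 0.093 correspond to ratios 1.10 and 1.07 times higher on the X. The lowest scores were raised as well: the 5th percentile was 0.57 and 0.58 on the X and between 0.47 and 0.51 on the 3 arms. Among X windows with at least 3 regions, the median score exceeded the autosomal median in 80 of 81 windows in replicate 1 and in 75 of 75 in replicate 2. On 2L, 3L and 3R the same held for 47.6%, 45.5% and 51.5% of windows in replicate 1, and for 46.3%, 42.7% and 40.8% in replicate 2. Higher scores were thus spread along the X. These scores belong to regions that had passed a threshold that is not given, and no test was run.

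**Figure D3:**
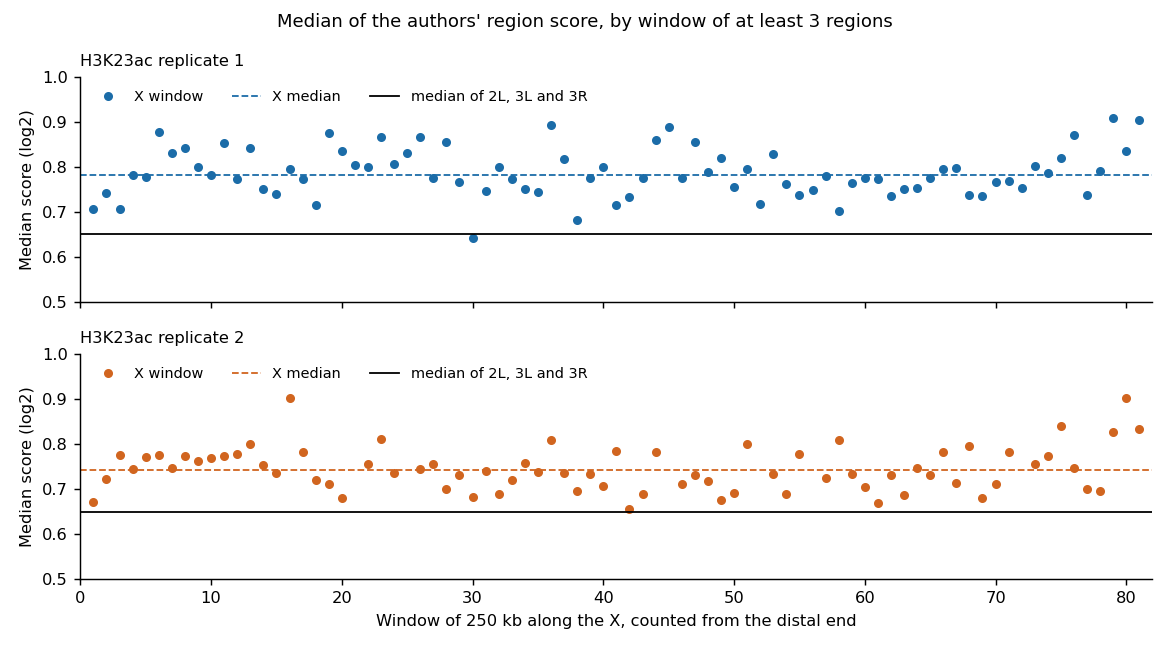
Median region score on the log2 scale in windows of 250 kb with at least 3 regions, along the X from the distal end, in replicate 1 (top, 81 windows) and replicate 2 (bottom, 75 windows). The coloured dashed line is the X median (0.78 and 0.74) and the black line the median of 2L, 3L and 3R (0.65); 1 window in replicate 1 falls below the black line.

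Along the X, score did not follow density. The rho of window score with window coverage was 0.13 in replicate 1 and 0.049 in replicate 2, and with position -0.040 and -0.039. Window medians ranged from 0.64 to 0.91 in replicate 1 and from 0.65 to 0.90 in replicate 2, and had a rho of 0.310 between the replicates over 75 windows. The last 3 whole windows before the cut, 19.5 to 20.25 Mb, were high-scoring, and sparse in replicate 2. They held 47 regions in replicate 1 with a median score of 0.87, against 0.78 in the rest of the X, and 13 regions in replicate 2 with a median of 0.84, against 0.74. Coverage there was 12.7% and 3.58%, against 15.5% and 8.45% over the whole X interval. In replicate 1 the window from 19.5 to 19.75 Mb, with 16.2%, was above the mean of the X. The windows with the highest median lay in this stretch in both replicates, 19.5 to 19.75 Mb with 0.91 in replicate 1 and 19.75 to 20 Mb with 0.90 in replicate 2. In replicate 2 this median came from 5 regions, and 3.75 to 4 Mb, also with 5 regions, had practically the same value, 0.90. The combined list had its highest window median, 0.63, elsewhere, from 11 to 11.25 Mb. At the cut, the last regions inside scored 0.67 in replicate 1 and 0.76 in replicate 2, and the first regions outside 1.26 and 0.92. In the combined list the last region inside scored 0.48 and the first outside, which crosses the cut, 0.47.

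Most regions of the shorter list were found in the longer one, and fewer the other way round. A region counts as found when it shares at least 1 base with a region of the other replicate. On the X 620 of 871 regions of replicate 2 were found in replicate 1 (71.2%, 95% Wilson interval 68.1 to 74.1%), against 72.7% of the regions of all chromosomes. In the other direction 611 of 1461 regions of replicate 1 were found in replicate 2 (41.8%, interval 39.3 to 44.4%), against 51.8% over all chromosomes. On 2L, 3L and 3R the shares were 72.1%, 72.8% and 72.8% for replicate 2, and 52.3%, 52.6% and 53.0% for replicate 1. Intervals cover counting error only. The share of replicate 2 on the X was thus near that of the whole series, while the share of replicate 1 was lower. Replicate 2 covered 8.45% of the X, against 13.7% to 15.1% of the 3 arms, so that regions of replicate 1 had fewer regions to meet there, and the part of this in the lower share was not tested.

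Of the 3.85 Mb covered in either replicate, 1.03 Mb was covered in both, a Jaccard index, the shared share of all covered bases, of 0.269 on the X, against 0.339, 0.352 and 0.350 on 2L, 3L and 3R. In the distal block the index was 0.349 and in the rest of the X 0.244. Of the bases of replicate 2, 59.96% were shared on the X, against 59.65%, 62.19% and 62.28% on 2L, 3L and 3R. For replicate 1 the shares were 32.74%, against 44.04%, 44.75% and 44.35%. The index cannot exceed the smaller covered length divided by the larger, and denser lists share more bases by position alone. Replicate 1 exceeded replicate 2 by the largest factor on the X, and the block was denser than the rest. The parts of these in the index values were not tested. There were 682 shared stretches on the X, 1476 bp long in the median, against medians of 1512.5, 1532.5 and 1506.5 bp on 2L, 3L and 3R. Lengths of at least 5 kb were reached by 12 of 1058, 23 of 1176 and 16 of 1472 stretches on these arms. On the X 2 of the 682 were that long. The longest, 7794 bp from 18520074 to 18527867, was a single wide region in each list, with scores of 0.95 in replicate 1 and 0.89 in replicate 2. The combined region scored 0.87. The next were 796210 to 801308 (5099 bp), 2356674 to 2361662 (4989 bp), 10269327 to 10273895 (4569 bp) and 1186990 to 1191453 (4464 bp). They were followed by 1072374 to 1076810 (4437 bp), 976258 to 980576 (4319 bp), 717559 to 721532 (3974 bp), 8419480 to 8423396 (3917 bp) and 1276796 to 1280695 (3900 bp). Of these 10 stretches 7 lay in the dense distal block.

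Regions were found in both replicates most often where the X was densely marked. When the 81 windows were divided at the quartiles of their mean coverage into 4 classes, the share of replicate 1 regions found in replicate 2 was 22.1%, 28.2%, 44.9% and 52.0% from the sparsest to the densest class. For replicate 2 regions found in replicate 1 it was 53.9%, 58.6%, 70.5% and 79.4%. The bases covered by the other list also increased, from 2.67% to 17.7% for replicate 1 and from 6.70% to 29.2% for replicate 2, and a denser list is met more often by position alone. Their part in the increase was not tested. Median scores of the 4 classes stayed between 0.78 and 0.79 in replicate 1 and between 0.72 and 0.75 in replicate 2. By width, the share ran from 20.8% below the lower quartile of width to 70.1% above the upper in replicate 1, and from 55.0% to 89.4% in replicate 2.

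**Figure D4:**
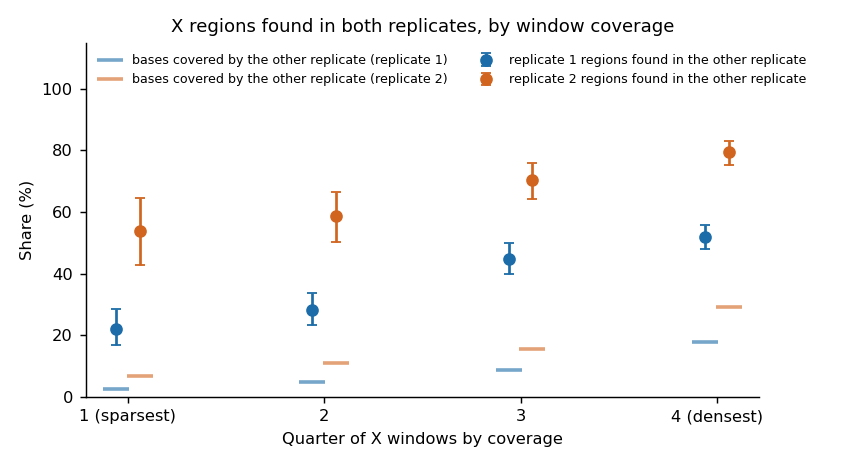
Share of X regions found in the other replicate (points with 95% Wilson intervals, which cover counting error only) in 4 classes of 250-kb windows cut at the quartiles of mean coverage, for replicate 1 (blue) and replicate 2 (orange); short bars give the share of bases covered by the other replicate in the same windows. The points go from 22.1% to 52.0% and from 53.9% to 79.4%, and the bars increase as well.

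Regions missing from the other replicate were narrower than those found. Missing regions of replicate 1 lay farther from the other, shorter list than those of replicate 2 did. The 850 regions of replicate 1 not found in replicate 2 were 1633 bp wide and scored 0.78 in the median, against 2168 bp and 0.80 for those found. Their median distance to the nearest region of replicate 2 was 7279 bp, and 103 of them (12.1%) lay within 1 kb. The 251 regions of replicate 2 not found in replicate 1 were 1505 bp wide and scored 0.71 in the median, against 1810 bp and 0.76 for those found. Their median distance was 2415 bp, and 64 (25.5%) lay within 1 kb. The highest score of each replicate on the X belonged to such a region. In replicate 1 this was 20269074 to 20270621, with 1.70, and in replicate 2 18770103 to 18771403, with 1.25. Their overlapping combined regions scored 0.73 and 0.69. These regions were named after their values were seen. Of the 100 highest-scoring regions, 58 of replicate 1 and 84 of replicate 2 were found in the other.

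Replicate 1 exceeded replicate 2 by more on the X than on the 3 autosomal arms. It covered 1.83 times as many bases on the X, against 1.35 times on 2L, 1.39 times on 3L and 1.40 times on 3R. In number of regions the ratio was 1.68 on the X, against 1.36, 1.39 and 1.36. Replicate 1 covered more in 80 of 81 windows of the X, where the median of the window ratios was 1.84 over the 80 windows with a region in replicate 2. The medians on 2L, 3L and 3R were 1.39, 1.45 and 1.46. The window from 16.75 to 17 Mb was the exception, with 5.17% in replicate 1 and 6.05% in replicate 2. The window with the largest ratio, 6.83, was 5 to 5.25 Mb, with 7.60% and 1.11%.

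Sparse windows had high replicate ratios on every arm, and the X stood above the 3 other arms in all but the sparsest of 4 classes of window coverage, whose limits were the quartiles of the X windows. In windows no denser than the lower quartile of the X the ratio was 2.51 on the X, against 2.53, 1.96 and 2.13 on 2L, 3L and 3R. In the next 2 classes it was 2.22 and 1.77 on the X, against 2.08 and 1.45 on 2L, 1.92 and 1.53 on 3L and 1.75 and 1.70 on 3R. In windows above the upper quartile of the X it was 1.65 on the X, from 20 windows, against 1.26, 1.30 and 1.32 on the 3 arms, from 45, 44 and 60 windows. This class has no upper limit, so coverage within it was not matched between arms. The most covered window had 47.8% in replicate 1 on the X, against 43.6%, 64.7% and 51.1% on 2L, 3L and 3R. In replicate 2 these values were 30.9%, against 36.4%, 56.5% and 53.6%. Windows were sorted here by the mean of the same 2 coverages whose ratio is given, and neither the ratios nor their difference between arms were tested, since each rests on 1 pair of replicates.

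**Figure D5:**
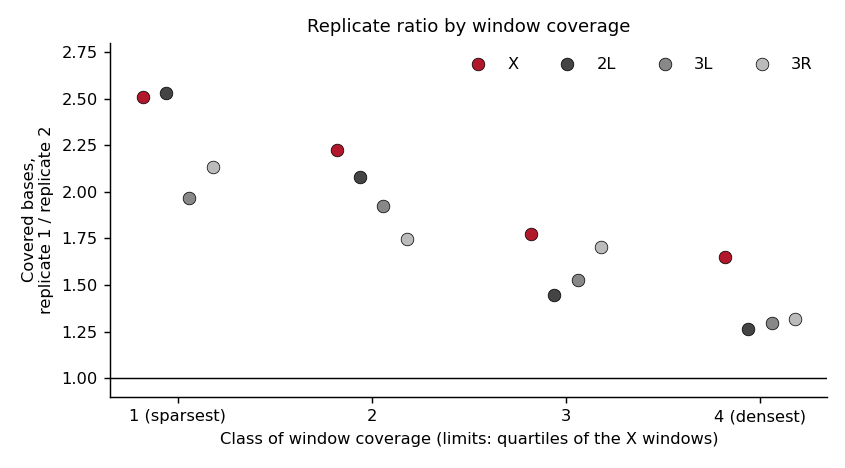
Covered bases of replicate 1 divided by those of replicate 2, summed over windows of 250 kb in 4 classes of mean coverage whose limits are the quartiles of the X windows, for the X (red) and the arms 2L, 3L and 3R (greys). In the densest class, which has no upper limit, the X stands at 1.65 and the arms at 1.26, 1.30 and 1.32. In the sparsest the X, at 2.51, lies just under 2L, at 2.53.

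At matched places, regions of replicate 1 were more often the wider and the higher-scoring ones, on the X and on the 3 arms. When overlapping regions were paired by largest overlap, each region used once, the X gave 570 pairs. Replicate 1 was wider in 385 of them, with medians of 2218 bp in replicate 1 and 1849 bp in replicate 2. It was also wider in most pairs on the 3 arms, in 492 of 879 on 2L, 572 of 973 on 3L and 718 of 1208 on 3R, where the median widths of paired regions were 2090, 2093 and 2150 bp for replicate 1, and 1988, 1938 and 1973 bp for replicate 2. It scored higher in 370 pairs, and the median difference was 0.053 on the log2 scale. On 2L, 3L and 3R replicate 1 scored higher in 469, 521 and 641 of these pairs, with median differences of 0.011, 0.0078 and 0.0089. The midpoints of paired regions on the X were 437 bp apart in the median, against 413, 418 and 438 bp on the 3 arms. Paired scores on the X had a rho of 0.368, a description across regions that are not independent, and paired widths one of 0.253. Both correlations are between regions of the same 2 libraries.

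The combined list added many narrow regions on the X. Of its 2727 regions 527 overlapped a region of both replicates (19.3%, 95% Wilson interval 17.9 to 20.9%), against 24.4% over all chromosomes. A further 736 overlapped a region of replicate 1 only and 208 of replicate 2 only. The remaining 1256 overlapped neither (46.1%, interval 44.2 to 47.9%), against 43.9% over all chromosomes. On 2L, 3L and 3R this share was 45.1%, 45.3% and 43.5%, with median widths of 1315, 1303 and 1325 bp. In the median, X regions in both were 3917 bp wide and scored 0.63, those in replicate 1 only 2080 bp and 0.53, those in replicate 2 only 1984 bp and 0.49, and those in neither 1317 bp and 0.50. No replicate region was narrower than 1301 bp, whereas 664 combined regions were, and 601 of these were in neither replicate. Of the 2063 combined regions of at least 1301 bp, 655 (31.7%) were in neither. From the sparsest to the densest of the 4 window classes, the share in both replicates was 8.88%, 11.5%, 20.3% and 30.4%, and the share in neither 56.7%, 52.0%, 47.3% and 34.7%. Nearly all replicate regions on the X lay in the combined list: 27 of 1461 of replicate 1 and 2 of 871 of replicate 2 did not overlap it. No such count over all chromosomes is given here, so nothing particular to the X is read from it.

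The highest-scoring combined regions on the X were of 2 kinds. Among those that overlapped both replicates, 1891218 to 1894734 came first. It lies in the distal block and scored 1.49 in replicate 1 and 1.12 in replicate 2. Its combined score was 1.07. The region 19761958 to 19766540, in the high-scoring windows near the cut, scored 1.14 in replicate 1, 1.10 in replicate 2 and 1.03 combined, and 19670566 to 19677728 close by scored 1.27, 1.01 and 0.95. In the distal block, 2021164 to 2026704 scored 0.97, 1.13 and 0.95, its neighbour 2012452 to 2016334 scored 1.04, 0.94 and 0.90, and 713480 to 722094 scored 1.03, 0.85 and 0.86. Elsewhere on the X were 9646500 to 9649464, with 1.43, 0.91 and 0.92, and 6707788 to 6710992, with 1.19, 0.90 and 0.87. The last of these 10 were 18518724 to 18528718, which holds the longest shared stretch, with 0.95, 0.89 and 0.87, and 5625942 to 5630086, with 1.03, 1.13 and 0.86. Replicate 1 scored higher than replicate 2 in 8 of the 10.

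Combined regions at or above the lowest score of these 10 numbered 18, and the other 8 overlapped neither replicate. Of all 2727 combined regions on the X, 46.1% overlapped neither and 19.3% both, against 43.9% and 24.4% over all chromosomes. The limit was set by the 10 regions in both replicates, so their number among the 18 was fixed in advance. All 8 in neither replicate were narrow, from 1001 to 1447 bp. The 5 with the highest scores were 10445392 to 10446584 (1.64, the highest on the X), 10500942 to 10501942 (1.06), 189688 to 190768 (0.98), 13079978 to 13080978 (0.96) and 13076024 to 13077186 (0.96). The last pair are close neighbours in the longest run of sparse windows. On 2L, 3L and 3R the highest combined scores, 2.71, 2.90 and 3.01, also belonged to regions in neither replicate. What the combined list was made from is not stated, so these scores were set against those of the same list only.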

How the data were processed

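The authors deposited 3 region lists, 1 for each ChIP sample and 1 for the whole series, on FlyBase release 5 per the file headers. Per the labels, each input sample served 1 replicate list. The submitters' processing notes list Bowtie 0.12.7 but give no role for it. The region caller, its threshold and the origin of the combined list were not given in the sources used. The deposited score is on a log2 scale, found from the values: on the X, 2 raised to the difference of neighbouring scores was a ratio of whole numbers with a denominator up to 20000 (relative tolerance 1e-12) for 90.8%, 90.7% and 58.0% of differences in replicate 1, replicate 2 and the combined list, against at most 0.230% for natural or decimal logarithms. What the score's ratio counts is not stated.

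Coverage was measured in bases, in windows of 250 kb from the distal end. The last 172.8 kb before the cut were left out of window values. A region belongs to the window of its midpoint. Arm 2R was not used here. Regions were named by rank: the 10 highest-scoring combined regions in both replicates and 5 in neither, the 10 longest shared stretches and gaps, and the 5 most and least covered windows. The members, rules and comparisons were chosen with earlier results of these data known. Overlap and pairing were run on simulated lists and returned the planted share of regions in 2 of 2 simulations. The second list was there an exact copy of a part of the first, so this checks the code only. It does not show how regions that are offset or differ in width are matched. Gap counts were checked separately, on a simulated stretch with planted gaps. No test across samples was possible. The available gene table follows Release 6, and coordinates were not converted. The number of sample columns left unused was 0. Scripts ran on Python 3.11.15 with pandas 2.3.3, numpy 2.4.6 and scipy 1.17.1, and plots were drawn with matplotlib 3.10.9.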

Additional observations from a re-analysis of the deposited data

How the results depend on the processing

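Of 61 alternative values for 13 results, 27 stayed within 1 SD of the replicates, the 95% interval or 1.5 times a count, or rounded to the same rho, 32 moved and 2 reversed. The 11 values without the first 2.5 Mb of the X were chosen after seeing the data. One reversal was among them: the rank trend of coverage with position was 0.069 there, against -0.21. The other came with only regions scoring above the median of their own list, where the X to autosome ratio was 1.06 ± 0.255 (SD, n = 2), against 0.681. It was 1.24 in replicate 1 but 0.876 in replicate 2, so the X was still the less covered in replicate 2. This limit is set on the score, which was higher on the X than on the 3 arms. Leaving out each replicate gave 8.45 to 15.5% for the covered share of the X, 0.586 to 0.775 for its ratio to the autosomal share, 0.093 to 0.13 for the score difference, 0.603 to 0.789 for the coefficient of variation of window coverage, -0.24 to -0.19 and -0.040 to -0.039 for the trends of coverage and score with position, and 5594 to 8035 bp for spacing, which lie within the SD by construction. In the combined list the covered share was 32.4%, the score difference 0.077, the trend of score -0.060, the coefficient of variation 0.442 and the spacing 2105 bp. With only regions above the median score of their own list, the shares found were 38.6% for replicate 1 and 66.4% for replicate 2. The rho between window coverages was 0.846 with this limit. With equal numbers of regions the share for replicate 2 was 67.5%, the window rho 0.849, the score trend -0.048 and the rho of paired scores 0.333. With at least 50% of a region covered the shares were 31.3% and 61.2%, and the combined regions in both replicates came to 10.7%. With regions under 1000 bp apart merged, this share was 24.6% and the spacing 8643 bp. The longer spacing follows from the merging, which removes distances under 1000 bp. How merging raised the share was not tested. With 50% reciprocal overlap the rho of paired scores was 0.432. Windows of 100 kb and 1 Mb gave a window rho of 0.820 and 0.886, a coefficient of variation of 0.831 and 0.507, and score trends of -0.049 and -0.12; the trend of coverage was -0.25 with 1 Mb. Without the first 2.5 Mb the share for replicate 1 was 38.5%, the window rho 0.818, the score trend -0.033 and the rho of paired scores 0.379. Empty stretches numbered 59 from 30 kb, 0 from 100 kb and 50 when only the replicates had to be empty. The cause was not tested except where the construction shows it. No paired analysis was possible because only the ChIP samples have lists here. Depth is unknown, so its part in the different list lengths could not be measured.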
